A study of Homo sapiens with 12 samples.

Results

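Translation efficiency, the number of ribosome footprints on a transcript relative to its mRNA, was compared between GIGYF1/2-null and wild-type (WT) HEK293T cells, a human embryonic kidney line that carries the SV40 large T antigen. The members are the 13299 of 27011 genes in the count tables that passed a low-count filter in both assays: 15480 passed in RNA-seq and 14804 in Ribo-seq. No measured change was used to choose them, but a gene that passes through only one genotype is likely to differ, so shares over the members are shares of the genes tested and not of all genes. GIGYF1/2-null, 4EHP-null and WT cells of this line were untreated and plated on 15 cm dishes 24 hours before harvest, and each was measured in 2 replicates by RNA-seq (total RNA, TruSeq) and by Ribo-seq, which sequences the fragments that ribosomes protect. The series' design calls them biological replicates, and their labels do not say if each null line is 1 clone. Of the 12 libraries, the 8 of GIGYF1/2-null and WT cells are compared here, and 4EHP-null cells, in which the gene of the cap-binding protein 4EHP (EIF4E2) is disrupted, serve for a final comparison.

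GIGYF1 and GIGYF2 are large scaffold proteins that bind 4EHP. 4EHP holds the mRNA cap like eIF4E but does not recruit eIF4G, so that the complex keeps the initiation machinery from the cap. It is brought to its targets by proteins that bind AU-rich elements, by the TNRC6 proteins of microRNA silencing and by ZNF598, which marks collided ribosomes. Loss of such a repressor can raise footprints per mRNA, but a repressed mRNA may also be degraded, in which case mRNA and footprints move together and translation efficiency (TE) stays the same.

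RNA-seq libraries held 31206334 and 33594170 counts in GIGYF1/2-null cells and 30218246 and 38175701 counts in WT cells. Ribo-seq libraries held 8333244 and 10816080 counts in GIGYF1/2-null cells and 6968894 and 10611080 counts in WT cells. The median standard error of a gene's log2 change was 0.161 in footprints and 0.129 in mRNA. Markers of HEK293T cells, such as VIM and NEFM, were present in every library, whereas PTPRC, TYROBP and INS, of other cell types, had at most 1 count in any library. The summed level of 14 leukocyte markers was 10 and 11.5 CPM in GIGYF1/2-null and 7.21 and 7.7 CPM in WT RNA-seq with 6 markers at 0 in each of these libraries; its part in the results was not tested. CPM are read counts scaled to library size (TMM, over the tested genes); the marker sums use all counts instead.

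The targeted genes were examined first. GIGYF1 had 14 and 31 footprint counts in GIGYF1/2-null cells and 60 and 71 in WT cells, and its mRNA had 707 and 889 counts in GIGYF1/2-null cells against 1215 and 1516 in WT cells. Its footprints fell by 1.70 ± 0.26 on the log2 scale (standard error; edgeR quasi-likelihood test, adjusted p = 0.00128) and its mRNA fell by 0.75 ± 0.13 (adjusted p = 0.00161), while its TE change of -0.95 ± 0.29 did not pass (adjusted p = 0.678). GIGYF2 had 673 and 584 footprint counts in GIGYF1/2-null cells and 627 and 675 in WT cells, with 3054 and 2799 mRNA counts in GIGYF1/2-null cells and 2397 and 2457 in WT cells. The counts of GIGYF2 therefore showed no loss of mRNA or footprints, and they do not check that part of the label. A count over a whole gene cannot show a small frameshifting deletion. For EIF4E2 the TE change was -0.02 ± 0.17 and for ZNF598 it was -0.14 ± 0.15.

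Few genes were called for a TE change. At an adjusted p under 0.05, 6 of the 13299 genes (0.0451%) passed, 5 higher (0.0376%) and 1 lower (0.00752%) in GIGYF1/2-null cells, and 581 genes (4.37%) had an unadjusted p under 0.05, 324 of them higher (2.44%). The median log2 TE change was -0.013, with quartiles of -0.147 and 0.131, and the median standard error of a gene's change was 0.208. Of 220 genes whose TE estimate was 2-fold or more from WT, 6 passed. The median standard error was 0.531 for the 868 genes under 2 footprint CPM and 0.165 for the 1878 genes of 100 CPM or more, so that the same change is far less certain at low footprint levels.

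Footprints and mRNA each passed the threshold at many more genes. Their median standard errors were also smaller, at 0.161 and 0.129 against 0.208 for TE. Footprints rose for 265 genes (1.99%) and fell for 515 (3.87%), together 5.87%, and mRNA rose for 629 (4.73%) and fell for 723 (5.44%), together 10.2%. Of the 629 genes whose mRNA rose, 604 had more footprints, 179 past the threshold and none past it in the opposite direction, with a median log2 change of 0.741 in mRNA, 0.594 in footprints and -0.126 in TE. Of the 723 whose mRNA fell, 678 had fewer footprints, 348 past the threshold, with medians of -0.602 in mRNA, -0.55 in footprints and 0.046 in TE. Because a TE change is the footprint change minus the mRNA change, error in the mRNA estimate enters TE with the opposite sign, and genes chosen for an mRNA change have TE drawn the other way by construction. Across the 13299 genes, which are not independent replicates, the footprint and mRNA changes had a Pearson correlation of 0.645.

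**Figure D1:**
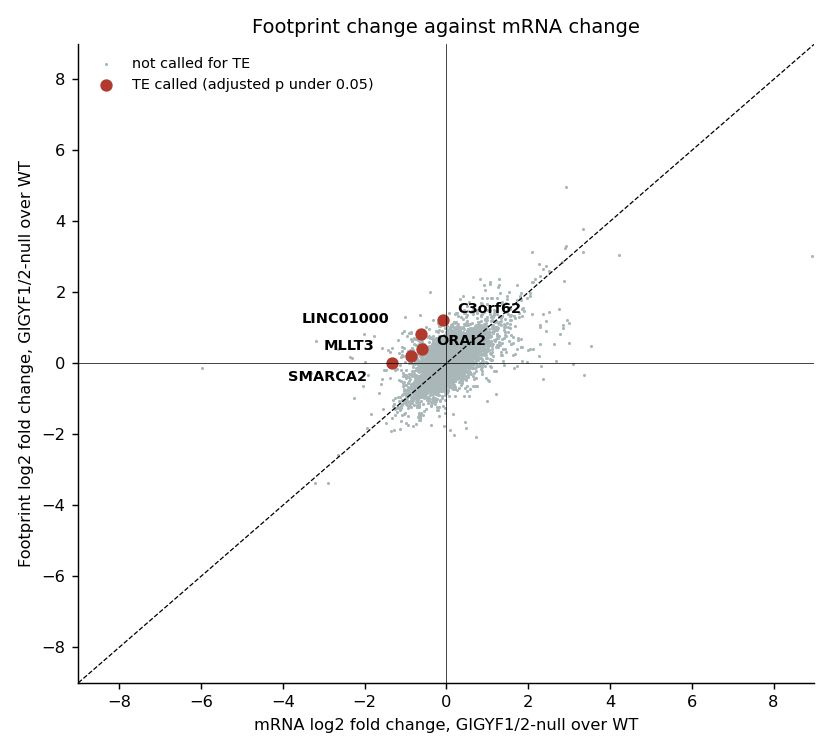
Log2 fold change of footprints (vertical) against that of mRNA (horizontal), GIGYF1/2-null over WT, for the tested genes reported; the dashed line marks equal change, so distance above or below it is the TE change. The 5 genes with higher TE lie above the line, SMARCA2 furthest left with an mRNA change of -1.32 and a footprint change of 0.01.

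Among genes with large mRNA changes, footprints followed in some and fell short in others. GPR50, an orphan relative of the melatonin receptors, had 113 and 127 footprint CPM in GIGYF1/2-null cells and 14.6 and 13.1 in WT cells, beside 56.6 and 62.4 mRNA CPM in GIGYF1/2-null cells and 5.78 and 5.97 in WT cells. Its mRNA rose by 3.34 ± 0.13 and its footprints by 3.13 ± 0.13 (log2; edgeR, adjusted p = 6.46e-10 and 4.48e-09), which left a TE change of -0.21 ± 0.18. HMOX1, which breaks down heme, rose by 1.82 ± 0.15 in mRNA and 1.78 ± 0.16 in footprints (adjusted p = 3.98e-06 and 1.72e-05), with a TE change of -0.04 ± 0.22. Cyclin D1 (CCND1), which drives entry into S phase, rose by 1.16 ± 0.10 in mRNA and 1.43 ± 0.12 in footprints (adjusted p = 4.93e-06 and 7.66e-06), with TE at 0.27 ± 0.15. In the other direction the teneurin TENM1, a cell adhesion protein, fell by 3.21 ± 0.17 in mRNA and 3.36 ± 0.28 in footprints (adjusted p = 4.15e-08 and 8.99e-06), with a TE change of -0.15 ± 0.37. In others footprints changed less than mRNA. SLC5A5, the sodium-iodide symporter, rose by 2.95 ± 0.23 in mRNA and 1.22 ± 0.25 in footprints (edgeR, adjusted p = 2e-06 and 0.0108), with a TE change of -1.73 ± 0.35 that did not pass (adjusted p = 0.137). MAPK13, a p38 kinase, rose by 2.29 ± 0.17 in mRNA and 1.07 ± 0.20 in footprints (edgeR, adjusted p = 1.66e-06 and 0.00628), with a TE change of -1.21 ± 0.27 (adjusted p = 0.211).

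Among the genes with higher TE, SMARCA2 encodes BRM, an ATPase of the SWI/SNF chromatin remodelling complex. It had 58.4 and 50.1 footprint CPM in GIGYF1/2-null cells and 60.5 and 47.4 in WT cells, which overlap. Its mRNA had 10.4 and 9.26 CPM in GIGYF1/2-null cells and 26 and 23.1 CPM in WT cells, which do not. mRNA fell by 1.32 ± 0.14 (edgeR, adjusted p = 2.67e-05) while the footprint change was 0.01 ± 0.14, and TE rose by 1.33 ± 0.19 (adjusted p = 0.0347). Its footprint to mRNA ratio, with 0.5 CPM added to both, was 5.4 and 5.19 in GIGYF1/2-null cells and 2.3 and 2.03 in WT cells.

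MLLT3, known as AF9, a reader of acylated histones in the super elongation complex, had the same form of change. Its footprints were at 93.1 and 86.6 CPM in GIGYF1/2-null cells and 81.3 and 73.4 CPM in WT cells, and its mRNA at 25 and 21.9 CPM in GIGYF1/2-null cells and 47.7 and 38.5 CPM in WT cells. mRNA fell by 0.87 ± 0.12 (edgeR, adjusted p = 0.000244), the footprint change of 0.22 ± 0.12 did not pass, and TE rose by 1.09 ± 0.17 (adjusted p = 0.0347). ORAI2, a subunit of store-operated calcium channels, also took this form. It had 52.7 and 63.6 footprint CPM in GIGYF1/2-null cells and 45.3 and 43 in WT cells, and 31 and 36.3 mRNA CPM in GIGYF1/2-null cells and 51.2 and 51.2 in WT cells. Its mRNA fell by 0.60 ± 0.11 (edgeR, adjusted p = 0.00236), the footprint change was 0.40 ± 0.12 (adjusted p = 0.0643), and TE rose by 1.01 ± 0.16 (adjusted p = 0.0438).

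The remaining 2 called genes have symbols that the naming rule leaves out (open reading frame and non-coding names), so that they were chosen for naming after their values were seen. C3orf62 was the only one called through its footprints alone, with 980 and 796 footprint CPM in GIGYF1/2-null cells and 370 and 388 in WT cells. Its mRNA was at 7.91 and 7.84 CPM in GIGYF1/2-null cells and 9.01 and 7.72 CPM in WT cells, which overlap. Footprints rose by 1.23 ± 0.14 and TE by 1.32 ± 0.20 (edgeR, adjusted p = 0.000116 and 0.0347). Its WT ratio of 45.2 footprint CPM per mRNA CPM was exceeded by 115 of the 13299 genes. LOC100506127 had nearly the same footprint counts (991 and 807 CPM in GIGYF1/2-null cells, 376 and 396 CPM in WT cells), so the reads of this pair cannot be assigned to one of them here. LINC01000, annotated as a long non-coding RNA, had 8.92 and 12.5 footprint CPM in GIGYF1/2-null cells and 5.6 and 6.55 in WT cells, with 17.1 and 17.8 mRNA CPM in GIGYF1/2-null cells and 26.9 and 26.7 in WT cells. It was the one gene of the 13299 whose footprints rose (0.82 ± 0.20) while its mRNA fell (by 0.62 ± 0.13), both past the threshold (adjusted p = 0.0243 and 0.00541), and its TE rose by 1.44 ± 0.23 (edgeR, adjusted p = 0.0438).

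**Figure D2:**
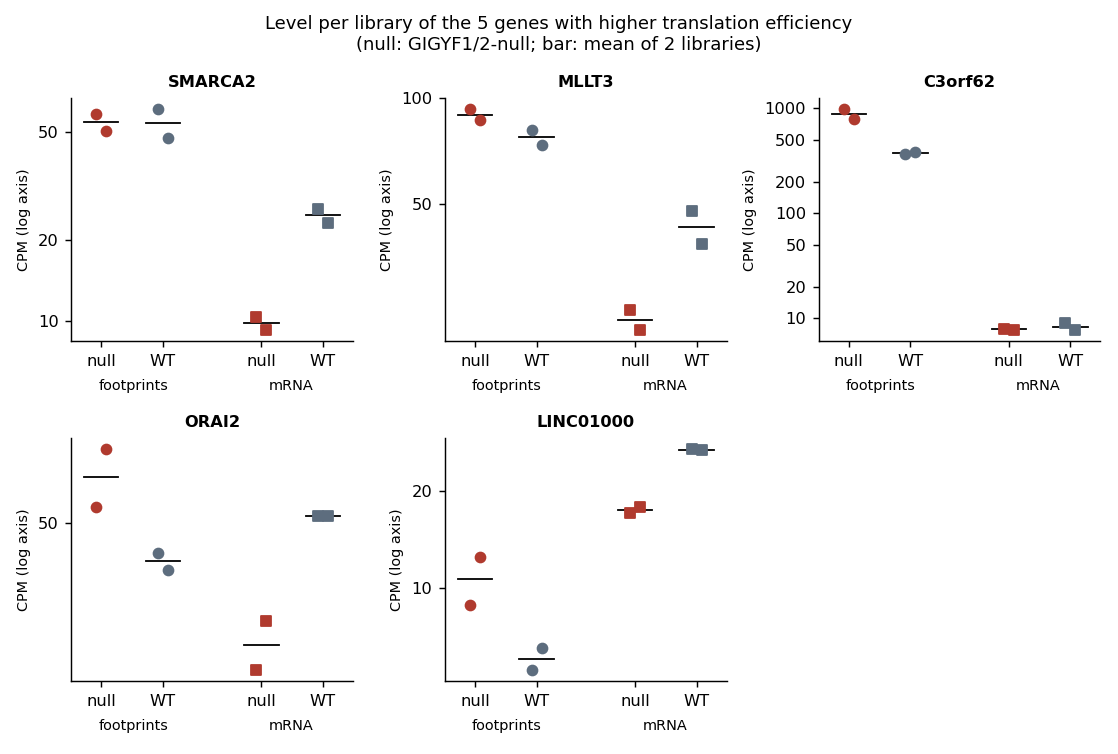
Level per library, in CPM on a log axis, of the 5 genes called with higher TE; footprints are on the left and mRNA on the right of each panel, GIGYF1/2-null libraries (null) stand left of WT libraries, and bars are means of 2. In SMARCA2, MLLT3 and ORAI2 the mRNA of GIGYF1/2-null cells is the lower, without overlap, whereas the footprints are not lower; in C3orf62 footprints alone differ.

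Of 26 alternative settings, SMARCA2 was called under 19, C3orf62 under 18, MLLT3 under 16, ORAI2 under 13 and LINC01000 under 12 of the 24 that kept it. In each of those settings the direction was as given. The calls for the 5 genes that rose rest on single libraries: without WT RNA-seq replicate 1, GIGYF1/2-null RNA-seq replicate 1 or WT Ribo-seq replicate 2, none of the 5 passed.

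Of the 5 genes with higher TE, 4 lie among genes whose mRNA was also lower in GIGYF1/2-null cells. Of the tested genes within 10 places of SMARCA2 on chromosome 9 in RefSeq order, 13 of 14 had an mRNA change below 0 (12 past the threshold, as 5.44% of all tested genes were), and their median log2 changes were -0.977 in mRNA, -0.798 in footprints and 0.16 in TE. Around MLLT3, on the same chromosome, 20 of 20 neighbours were below 0 in mRNA (14 past the threshold), with medians of -0.615 in mRNA, -0.508 in footprints and 0.021 in TE. On chromosome 7, 19 of 20 neighbours of ORAI2 and 18 of 20 of LINC01000 were below 0, with mRNA medians of -0.386 and -0.518 and footprint medians of -0.489 and -0.475. Footprint changes were below 0 in 12 of 14 neighbours of SMARCA2 and 19 of 20 of each of the others, but fewer passed than in mRNA: 5 around SMARCA2, 8 around MLLT3, 8 around ORAI2 and 9 around LINC01000 (3.87% of all tested genes did). The footprint changes of SMARCA2, MLLT3, ORAI2 and LINC01000 were themselves above 0.

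Single neighbours varied, and those named were chosen after their values were seen. RCL1, which cleaves pre-ribosomal RNA and lies near SMARCA2, had 16.3 and 16.1 footprint CPM in GIGYF1/2-null cells and 35.4 and 35.7 in WT cells; its mRNA fell by 0.84 ± 0.10 and its footprints by 1.13 ± 0.12 (edgeR, adjusted p = 0.00012 and 0.000103), with a TE change of -0.29 ± 0.16. PLIN2, a coat protein of lipid droplets that lies near MLLT3, had 21.2 and 20.1 footprint CPM in GIGYF1/2-null cells and 44.2 and 44 in WT cells. Its mRNA fell by 0.97 ± 0.10 and its footprints by 1.10 ± 0.12 (adjusted p = 3.05e-05 and 0.000103), with a TE change of -0.12 ± 0.16. AK3, a mitochondrial adenylate kinase near SMARCA2, went the other way: its mRNA fell by 0.98 ± 0.13 (edgeR, adjusted p = 0.000238), its footprint change of -0.39 ± 0.16 did not pass (adjusted p = 0.18), and its TE change was 0.58 ± 0.21 (adjusted p = 0.889). CBWD1 and RLN2 near SMARCA2 and BNC2 near MLLT3 likewise had called mRNA falls without a footprint call, with TE changes of 0.42 ± 0.15, 0.78 ± 0.52 and 0.81 ± 0.52. No neighbour of SMARCA2, ORAI2 or LINC01000 had a TE change as high as theirs; among those of MLLT3 the sodium-calcium exchanger SLC24A2, a gene with few reads, did (3.05 ± 0.93, adjusted p = 0.677). GIGYF1 itself lies in a like neighbourhood of chromosome 7: 19 of its 20 neighbours were below 0, with medians of -0.489 in mRNA and -0.473 in footprints. Around C3orf62 the median mRNA change was 0.165.

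DHX36, a helicase that unwinds G-quadruplexes, had 33.5 and 28.6 footprint CPM in GIGYF1/2-null cells and 110 and 102 in WT cells, and 30.5 and 27.3 mRNA CPM in GIGYF1/2-null cells and 53.7 and 47.8 in WT cells. Its footprints fell by 1.77 ± 0.13 and its mRNA by 0.81 ± 0.11 (edgeR, adjusted p = 1.59e-06 and 0.000343). Its footprint to mRNA ratio was 1.1 and 1.05 in GIGYF1/2-null cells and 2.03 and 2.12 in WT cells, without overlap, and the TE change of -0.96 ± 0.17 had an adjusted p of 0.0649. It was called with DESeq2 and with edgeR under either replicate block, but not in the main edgeR fit. FOXP2, a forkhead transcription factor, had 17.6 and 15 footprint CPM in GIGYF1/2-null cells and 25.5 and 23.1 in WT cells, against 3.54 and 4.73 mRNA CPM in GIGYF1/2-null cells and 12.9 and 12.4 in WT cells. Its mRNA fell by 1.61 ± 0.19 (adjusted p = 8.96e-05), the footprint change was -0.58 ± 0.20 (adjusted p = 0.108) and the TE change 1.03 ± 0.28 (adjusted p = 0.504). It too lies on chromosome 7 among neighbours with lower mRNA (19 of 20, median -0.603).

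The authors' deposited table of TE holds 9870 genes, of which it calls 7 up and 8 down at an adjusted p under 0.05. C3orf62, SMARCA2, MLLT3 and ORAI2 were called both in the authors' deposited table and in the fit used here, and LINC01000 has no row in it. Of its 15 calls, 14 were tested here, all 14 with the same sign. Both come from the same libraries, so the shared sign is no independent support. HIST1H1C had a log2 TE change of -1.39 in the authors' deposited table, and here -1.40 ± 0.37 with an adjusted p of 0.449; it was called here with only the 8 libraries compared, and without either 4EHP-null RNA-seq library. The authors' deposited table gives a change of -0.94 for DHX36 and of 1.05 for FOXP2, both called there.

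SMARCA2 and FOXP2 both encode proteins with a long glutamine tract. A list of 20 proteins known for such tracts was therefore compiled, after the TE calls had been seen, and is described without a test. Of its 19 tested members 17 had a TE change above 0, with a median of 0.24, against 47.3% above 0 and a median of -0.013 over all tested genes. SMARCA2 passed, and 5 members were higher and none lower at an unadjusted p under 0.05. Over all 13299 tested genes 324 (2.44%) were higher and 257 lower at that threshold. The values of the list include SMARCA2 and FOXP2, whose TE prompted it. Without them 15 of 17 were above 0, with a median of 0.22; 0 passed with edgeR, DESeq2 or limma-voom, and 3 were higher at an unadjusted p under 0.05. The footprints of the 19 members spanned a narrower range than their mRNA. The 8 members under 30 mRNA CPM in WT cells, SMARCA2 and FOXP2 among them, ran from 0.543 to 27.6 CPM in mRNA. In footprints these 8 ran from 19.8 to 71.8 CPM. Other tested genes under this bound were not described, so the range is not shown to be particular to the list.

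KCNN3, a calcium-activated potassium channel, had 44 and 43.5 footprint CPM in GIGYF1/2-null cells and 31.1 and 23.3 in WT cells on an mRNA of 0.765 and 0.591 CPM in GIGYF1/2-null cells and 0.68 and 0.405 in WT cells. ATXN1, the ataxin-1 gene, had 65.1 and 58.2 footprint CPM in GIGYF1/2-null cells and 42.8 and 33.6 in WT cells, and its TE change was 1.07 ± 0.25 (edgeR, adjusted p = 0.299). TBP, the TATA-box binding protein, had a TE change of 0.51 ± 0.14 (adjusted p = 0.579). The median ratio of footprint to mRNA CPM was 1.68 in GIGYF1/2-null and 1.63 in WT cells over the list, and 0.781 in GIGYF1/2-null and 0.78 in WT cells over all tested genes. Fragments of CAG repeats can be the same in several genes, and the handling of reads with more than 1 match is not stated in the labels; the footprint levels of these genes are uncertain for that reason, and its part in the result was not tested.

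Cytosolic ribosomal protein genes nearly all had a higher TE estimate in GIGYF1/2-null cells, by amounts too small for any one of them to pass the threshold. Their mRNAs begin with a 5′ terminal oligopyrimidine (TOP) tract, a C at the cap followed by pyrimidines, through which mTORC1 and LARP1 set their translation. Of the 84 tested of 89 listed, 80 (95.2%) had a TE change above 0, against 47.3% of all tested genes, with a median log2 change of 0.27 and quartiles of 0.18 and 0.338. At an unadjusted p under 0.05, 10 were higher (2.44% of all tested genes were) and none lower, and 0 passed the adjusted threshold with edgeR, DESeq2 or limma-voom. The median change was -0.134 in mRNA and 0.146 in footprints, and 56 of the 84 had mRNA below 0 with footprints above 0, against 13.4% of all tested genes. Of the subunits, 30 of 31 small subunit (RPS) and 48 of 51 large subunit (RPL) genes were above 0, at medians of 0.306 and 0.265.

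Summed over the 84 genes, footprints were at 127130 and 116450 CPM in GIGYF1/2-null cells and 114420 and 106930 CPM in WT cells, without overlap. Summed mRNA was at 97700 and 112590 CPM in GIGYF1/2-null cells and 111190 and 118550 CPM in WT cells, with overlap. The median footprint to mRNA ratio was 1.47 and 1.16 in GIGYF1/2-null cells and 1.18 and 0.988 in WT cells. The groups overlapped in this ratio: GIGYF1/2-null replicate 2 lay just under WT replicate 1. With each library left out in turn, the median TE change ran from 0.167 to 0.386, with 75 to 82 of 84 genes above 0, and under the 3 other scalings it ran from 0.268 to 0.306.

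The start of each transcript was read from RefSeq's promoter table (GRCh38.p14), which matched 68 of the 84 genes. A C at the start followed by at least 4 more pyrimidines (C or T), read on the strand of the gene, stood in 44 of the 68 (64.7%), against 4.07% of all 35116 promoters and 5.38% of tested genes. The windows below run from 10 bases before the annotated start to 20 bases from it, with the pyrimidine tract in capitals, and are shown for genes among those described next.
RPS12, chr6:132814559-132814588, plus strand: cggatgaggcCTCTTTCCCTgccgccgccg
RPS27, chr1:153990752-153990781, plus strand: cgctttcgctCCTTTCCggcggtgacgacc
RPS6, chr9:19380217-19380246, minus strand: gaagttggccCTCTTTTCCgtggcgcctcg
RPL39, chrX:119791611-119791640, minus strand: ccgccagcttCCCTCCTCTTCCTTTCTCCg
The tract ran for 10 bases in RPS12, 7 in RPS27, 9 in RPS6 and 19 in RPL39. Within the ribosomal protein genes the median TE change was 0.302 with such a start and 0.249 without it, and in the list of other TOP mRNAs the order was opposite, at 0.057 for 10 genes with it and 0.176 for those without. Among the 10370 tested genes outside the ribosomal protein and other TOP lists, it was -0.016 for the 509 with such a start and -0.017 for the others.

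RPS12 had the smallest p among ribosomal protein genes, with 403 and 442 footprint CPM in GIGYF1/2-null cells and 480 and 475 in WT cells, and 659 and 829 mRNA CPM in GIGYF1/2-null cells and 1207 and 1280 in WT cells. Its mRNA fell by 0.74 ± 0.12 (edgeR, adjusted p = 0.0012), and its TE change was 0.57 ± 0.17 (adjusted p = 0.678). RPS6, the S6 kinase substrate of the small subunit, is one of the neighbours of MLLT3; its mRNA fell by 0.66 ± 0.12 (adjusted p = 0.00185), with footprints of 2227 and 2173 CPM in GIGYF1/2-null cells and 2660 and 2556 CPM in WT cells and a TE change of 0.41 ± 0.16. RPS27 and RPL23A differed little in footprints (0.19 ± 0.11 and 0.16 ± 0.12), with TE changes of 0.48 ± 0.16 and 0.47 ± 0.16. RPL39 had 1791 and 1684 footprint CPM in GIGYF1/2-null cells and 1306 and 1226 in WT cells, and a TE change of 0.43 ± 0.19. RPSA, the laminin receptor homologue of the small subunit, was the lowest of the 84, at -0.26 ± 0.17.

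RPL22L1, a paralogue of RPL22, was the one ribosomal protein gene whose rise passed the threshold in both assays. It had 513 and 536 footprint CPM in GIGYF1/2-null cells and 144 and 151 in WT cells, and 299 and 356 mRNA CPM in GIGYF1/2-null cells and 121 and 113 in WT cells. Its footprints rose by 1.83 ± 0.12 and its mRNA by 1.48 ± 0.12 (edgeR, adjusted p = 8.91e-07 and 2.99e-06), with a TE change of 0.35 ± 0.17.

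**Figure D3:**
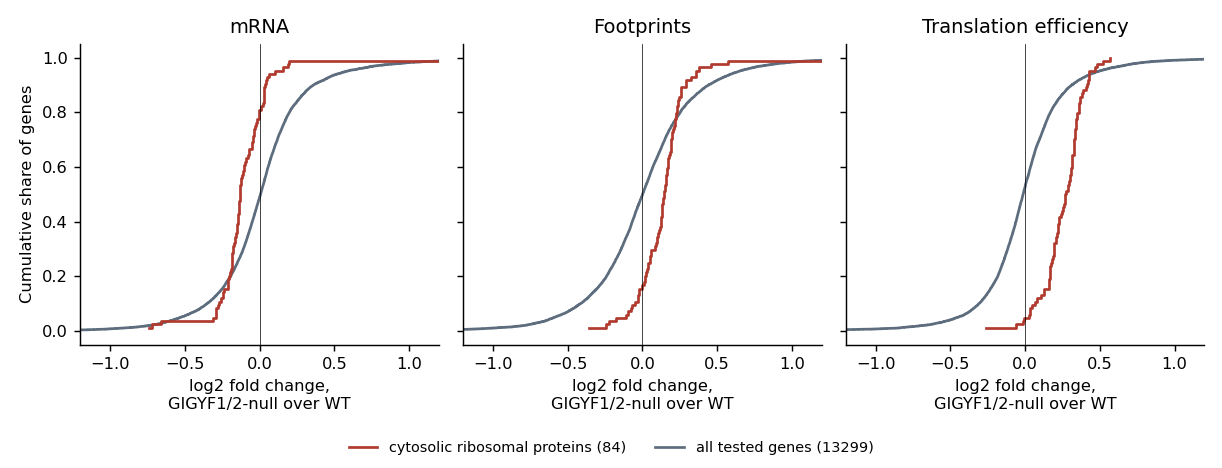
Cumulative share of genes (vertical) by log2 fold change, GIGYF1/2-null over WT, in mRNA, footprints and TE, for 84 cytosolic ribosomal protein genes and all 13299 tested genes; the axes stop at 1.2 in either direction. The ribosomal protein curve lies left of all genes in most of the mRNA panel (median -0.134), right in the footprint panel up to the upper quartile (0.146) and furthest right in the TE panel (0.27).

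The other TOP mRNAs, of elongation factors and related proteins, had a median TE change of 0.088 over 22 genes, 17 of them above 0 and none called. This median was -0.013 without GIGYF1/2-null Ribo-seq replicate 1. TPT1, the translationally controlled tumour protein, fell by 0.78 ± 0.13 in mRNA (edgeR, adjusted p = 0.0013), with a TE change of 0.33 ± 0.18. PABPC1, the cytoplasmic poly(A)-binding protein and also a TOP mRNA, was below 0: it had 324 and 247 footprint CPM in GIGYF1/2-null cells and 433 and 396 in WT cells, its footprints fell by 0.54 ± 0.14 (adjusted p = 0.0387), and its TE change was -0.46 ± 0.20 (adjusted p = 1). Mitochondrial ribosomal proteins had a median TE change of 0.027 over 77 genes.

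The 39 other lists held 1858 tested genes, of which 0 passed for TE with edgeR or DESeq2 and 1 did with limma-voom. That gene was ZNF700, whose mRNA was at 0 in GIGYF1/2-null cells. Of the 1858 genes, 36 were higher and 37 lower at an unadjusted p under 0.05. Over all 13299 tested genes 324 (2.44%) were higher and 257 lower at that threshold. Sets linked to the complex are given by their medians, beside -0.013 over all tested genes. The 37 immediate early, ERK feedback and AU-rich mRNAs had a median of 0.112, with 27 above 0. KLF4, a transcription factor with an AU-rich 3′ end, had 2.97 and 2.97 footprint CPM in GIGYF1/2-null cells and 1.12 and 1.46 in WT cells; its footprints rose by 1.17 ± 0.33 (edgeR, adjusted p = 0.0494), and its TE change was 0.98 ± 0.37 (adjusted p = 0.999). SPRED1, an inhibitor of ERK signalling, had a TE change of 0.62 ± 0.24 (adjusted p = 0.976). For 15 genes of 4EHP, the GIGYF proteins and their binding partners the median was 0.014, the 13 Argonaute, TNRC6 and microRNA processing genes -0.114, the 29 of ribosome collision and quality control -0.075 and the 18 nonsense-mediated decay factors -0.117.

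Stress and signalling sets had like medians in mRNA and footprints. Of 34 interferon-stimulated and RNA-sensing genes 12 rose in mRNA (4.73% of all tested genes did) and 5 in footprints (1.99%), with medians of 0.298 in mRNA, 0.292 in footprints and -0.019 in TE. Integrated stress response and ATF4 targets had medians of -0.134 in mRNA, -0.182 in footprints and -0.031 in TE over 49 genes. The unfolded protein response, heat shock, p53, cell cycle, glycolysis, sterol synthesis, proteasome and oxidative phosphorylation lists had TE medians from -0.082 to 0.028. Aminoacyl-tRNA synthetases, which charge tRNAs, had a median of -0.083, with 17 of 23 below 0.

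The 2 lists with the lowest medians have counts that are hard to compare between the assays. Replication-dependent histones, whose mRNAs lack a poly(A) tail, had a median TE change of -0.60 over 25 of 73 genes, with 0.724 in mRNA and 0.203 in footprints. With 1 library left out it ran from -0.794 to -0.189, -0.189 being without GIGYF1/2-null RNA-seq replicate 2; without WT RNA-seq replicate 2 it was -0.346. Their summed level was 35549 and 35141 CPM in GIGYF1/2-null and 29441 and 32521 CPM in WT footprints, but 186 and 198 CPM in GIGYF1/2-null and 123 and 124 CPM in WT mRNA. Clustered protocadherins, neuronal adhesion genes whose transcripts share their last exons, had a median of -0.771 over 23 of 51 genes, most of them with nearly the same counts. With 1 library left out this median ran from -1.085 to -0.4, at -0.4 without WT Ribo-seq replicate 2 and -0.431 without GIGYF1/2-null Ribo-seq replicate 2. The mRNA of 16 of the 23 fell (5.44% of all tested genes did) and footprints of 2 did (3.87%). Because most of the 23 had nearly the same counts, these are not separate results. With at least 50 counts required, 1 gene was left, at 0.18.

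**Figure D4:**
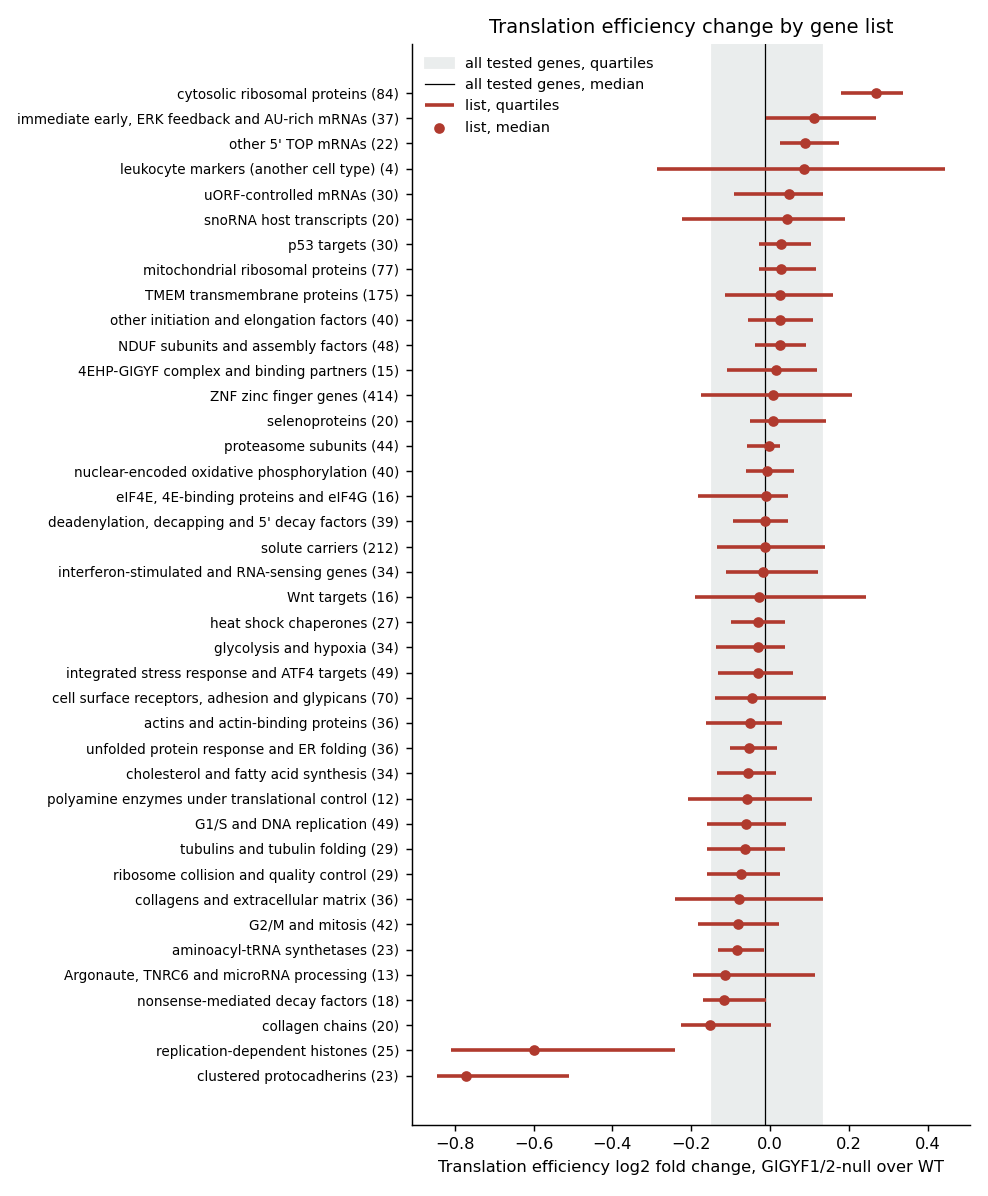
Median (points) and quartiles (lines) of the log2 TE change, GIGYF1/2-null over WT, in the 40 gene lists, with the number of tested members in brackets; the grey band and black line are the quartiles and median of all 13299 tested genes. The band shows the spread of single genes and is no measure of a list median's error. Cytosolic ribosomal proteins lie highest, at 0.27, and clustered protocadherins lowest, at -0.771.

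The TE changes of GIGYF1/2-null cells were set beside those of 4EHP-null cells. Both use the same WT libraries, so only the direct difference between the knockouts, in which WT cancels, was tested. It passed for 27 of 13299 genes (0.203%), 6 higher (0.0451%) and 21 lower (0.158%) in GIGYF1/2-null cells. The 4EHP-null cells had 13 TE calls against WT (0.0978%). SMARCA2 and MLLT3 differed: their TE changes were 1.33 ± 0.19 and 1.09 ± 0.17 in GIGYF1/2-null cells and 0.05 ± 0.19 and 0.08 ± 0.17 in 4EHP-null cells (difference 1.28 ± 0.19 and 1.01 ± 0.17, edgeR, adjusted p = 0.0124 and 0.029). DHX36 differed in the other direction, at -0.96 ± 0.17 in GIGYF1/2-null and 0.03 ± 0.16 in 4EHP-null cells (difference -0.99 ± 0.17, adjusted p = 0.0297).

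C3orf62 changed in both knockouts, by 1.32 ± 0.20 in GIGYF1/2-null and 2.27 ± 0.20 in 4EHP-null cells, where its footprints reached 2131 and 1704 CPM; the difference of -0.96 ± 0.20 did not pass (edgeR, adjusted p = 0.0973). CTC1, a subunit of the telomeric CST complex, had 124 and 147 footprint CPM in GIGYF1/2-null cells, 448 and 330 in 4EHP-null cells and 71.9 and 62.5 in WT cells. Its TE change was 0.61 ± 0.20 in GIGYF1/2-null and 2.02 ± 0.20 in 4EHP-null cells, and the difference of -1.41 ± 0.19 passed (adjusted p = 0.00498). For ORAI2 the difference was 0.73 ± 0.16 (adjusted p = 0.127). In ribosomal protein genes the medians were 0.27 in GIGYF1/2-null and 0.23 in 4EHP-null cells, with 80 and 79 of 84 genes above 0 against the shared WT. None of the 84 differed between the knockouts past the threshold. Since 0.203% of all tested genes passed it, finding none among 84 says little.

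**Figure D5:**
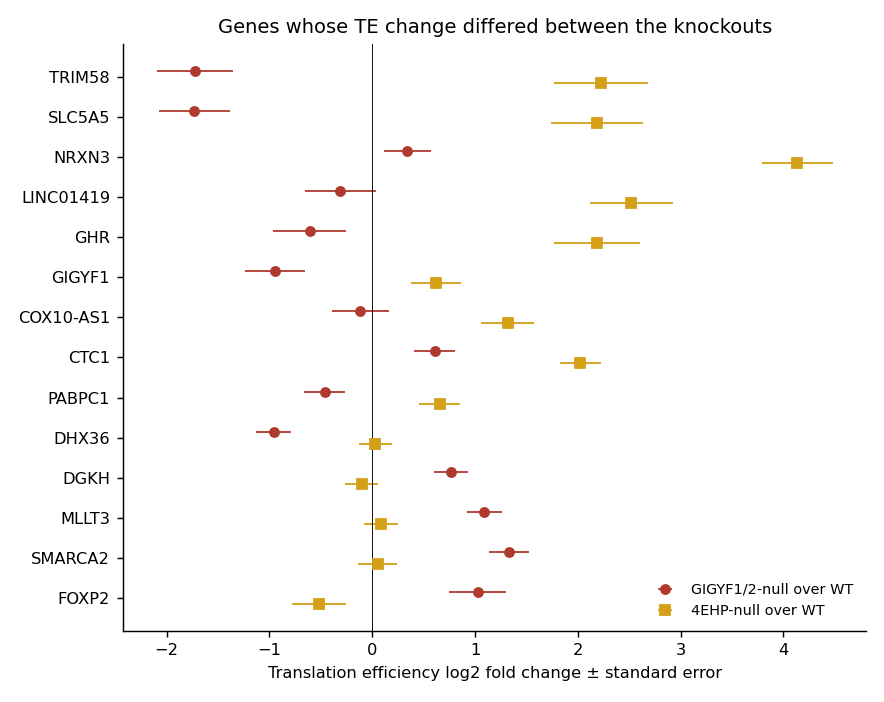
TE log2 fold change against WT, with standard errors, in GIGYF1/2-null (circles) and 4EHP-null cells (squares), for 14 genes whose change differed between the knockouts and whose mean mRNA level was at least 4 CPM in one of them. TRIM58 lies furthest apart, at -1.73 and 2.22; SMARCA2 and MLLT3 lie above 0 in GIGYF1/2-null cells and near 0 in 4EHP-null cells.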

How the data were processed

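RNA-seq and Ribo-seq of HEK293T cells were deposited by the authors as tables of raw read counts per gene, with a gene width column, and as tables of the authors' own TE comparisons (log2 fold changes, TE ratios and adjusted p-values). Per the submitters' processing notes, Bowtie2, TopHat2 and edgeR were used with the build hg19; neither their versions nor the counting settings are stated there. Without stated strandedness, reads of overlapping genes cannot be told apart, and 26 tested genes had counts identical to another's.

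Genes were kept where edgeR's filterByExpr (at least 10 counts) passed in both assays. All 12 libraries were fitted as 6 groups of assay and genotype (edgeR 4.0.16 quasi-likelihood F-test, R 4.3.3, TMM within each assay, two-sided, Benjamini-Hochberg over 13299 genes, adjusted p under 0.05). The 4EHP-null libraries add to the estimate of spread (common biological coefficient of variation 9.59%) and enter the TMM scaling of each assay. The TE change is the interaction of assay and genotype, and equals the footprint change minus the mRNA change. Errors are standard errors with n = 2 per group, and 95% intervals use t on 6 residual and 9.01 prior degrees of freedom. Alternatives used DESeq2 1.42.0, limma 3.58.1 (voom), other scalings, filters and blocks, and left out each library. The main edgeR fit alone was tried on simulated counts. These had the same spread for every gene, independent libraries and changes in GIGYF1/2-null footprints only.

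The comparison, the gene lists and the rule for named genes were chosen with earlier results of these data known. The rule named GIGYF1, GIGYF2, EIF4E2, ZNF598, TE calls with an mRNA mean of at least 4 CPM, a footprint mean of at least 1 CPM and no overlap of ratios (0.5 CPM added), leaving out non-coding and uncharacterised symbols, the 4 with the smallest adjusted p in each class of TE call, and for a list at most 3 genes in either direction, by adjusted p. Genes with large mRNA changes, neighbours, DHX36, FOXP2 and glutamine-tract genes were chosen after values were seen. A result that counts over all genes include is not reported here; its gene is left out of the figures, the named genes and the lists made afterwards. Symbols were matched to RefSeq (GRCh38.p14; 25573 of 27011, 94.7%) for names, gene order and transcript starts only. Protein sequence features were not analysed here.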

Additional observations from a re-analysis of the deposited data

Results flagged for a closer look

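The TE change of the following genes differed between GIGYF1/2-null and 4EHP-null cells in a direct test (edgeR, adjusted p under 0.05, differences in log2 with standard errors, GIGYF1/2-null minus 4EHP-null), among genes with a mean mRNA level of at least 4 CPM in one knockout. 12 further genes passed with less mRNA. No cause was tested.

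In 5 of these 14 genes the mRNA was under 2 CPM in both 4EHP-null libraries, while footprints were present. NRXN3, a presynaptic adhesion protein, differed by -3.80 ± 0.35, with mRNA at 7.01 and 8.16 CPM in GIGYF1/2-null and 0.306 and 0.305 CPM in 4EHP-null cells and footprints at 13.9 and 13.9 CPM in GIGYF1/2-null and 7.59 and 8.23 CPM in 4EHP-null cells. SLC5A5, the sodium-iodide symporter, differed by -3.92 ± 0.40, with mRNA at 10.7 and 12.2 CPM in GIGYF1/2-null and 0.552 and 0.343 CPM in 4EHP-null cells. TRIM58, a ubiquitin ligase, differed by -3.95 ± 0.44, LINC01419 by -2.83 ± 0.39 and GHR, the growth hormone receptor, by -2.80 ± 0.40. NRXN3 and CTC1 passed in all 25 settings that give this contrast, and SLC5A5 and TRIM58 in all 24 that kept them. GHR passed in 23 of 24, LINC01419 in 21 of 22, SMARCA2 in 22, MLLT3 in 18, DHX36 in 17, PABPC1 in 13, FOXP2 in 11 and DGKH in 9 of 25, GIGYF1 in 12 of 24 and COX10-AS1 in 10 of 22.

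The other 9 had more mRNA. SMARCA2 differed by 1.28 ± 0.19, MLLT3 by 1.01 ± 0.17, FOXP2 by 1.54 ± 0.28 and DGKH, a diacylglycerol kinase, by 0.87 ± 0.16. DGKH had 14.6 and 15.5 mRNA CPM in GIGYF1/2-null cells, 29.9 and 34.8 in 4EHP-null cells and 25.3 and 24 in WT cells, with footprints of 45.4 and 47.9 CPM in GIGYF1/2-null cells, 53.3 and 56.1 in 4EHP-null cells and 48.2 and 41.9 in WT cells. DHX36 differed by -0.99 ± 0.17 and GIGYF1 by -1.57 ± 0.29. CTC1 differed by -1.41 ± 0.19 and COX10-AS1 by -1.43 ± 0.26, and the footprints of both were highest in 4EHP-null cells, without overlap, while their mRNA differed little between the knockouts. PABPC1 differed by -1.12 ± 0.20, with TE changes of -0.46 ± 0.20 in GIGYF1/2-null and 0.66 ± 0.20 in 4EHP-null cells.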

How the results depend on the processing

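With 2 replicates per group, which genes pass for TE depends on single libraries. Sign over settings was followed for single genes and for the medians of cytosolic ribosomal proteins, other TOP mRNAs, clustered protocadherins and replication-dependent histones. Among these, 2 reversed. The median TE change of clustered protocadherins was 0.18 with at least 50 counts required (1 gene left, none with the CPM minimum below, so no value there). That of other TOP mRNAs, 0.088 with all libraries, ran from -0.013 (without GIGYF1/2-null Ribo-seq replicate 1) to 0.167 with 1 library left out. Medians near 0 of further lists also changed sign with upper-quartile scaling, where the median over all tested genes was 0.023. For integrated stress response and ATF4 targets it went from -0.031 to 0.005. TE calls, 5 up and 1 down, came to 0 up with glmTreat (minimum fold 1.2), 2 up and 3 down with only the 8 libraries, 4 down with DESeq2 and 2 down with limma-voom; leaving out 1 library gave 0 to 4 up and 1 to 4 down, with 0 up without WT RNA-seq replicate 1, GIGYF1/2-null RNA-seq replicate 1 or WT Ribo-seq replicate 2, and 4 down without either 4EHP-null RNA-seq library. Footprint calls, 265 up and 515 down, were 101 and 173 with glmTreat, 147 up with limma-voom and 168 up with at least 10 footprint and 5 mRNA CPM (chosen after seeing the data), and 75 to 261 up and 194 to 782 down with 1 library left out. mRNA calls, 629 up and 723 down, were 303 and 330 with glmTreat, 222 and 431 with the CPM minimum and 353 up with at least 50 counts, and 263 to 704 up and 327 to 864 down with 1 library left out. Differences from 4EHP-null, 6 up and 21 down, were 3 and 13 with glmTreat, 2 and 9 with at least 50 counts and 1 and 3 with the CPM minimum, and 0 to 25 up and 6 to 25 down with 1 library left out; the 25 up arose without 4EHP-null RNA-seq replicate 1. Fewer genes tested lowers counts under a stricter filter; other causes were not tested.

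Libraries share replicate numbers but no stated batch, so numbers pair nothing by the labels; same-numbered deviations correlated at 0.582 between GIGYF1/2-null and WT footprints, 0.511 between their mRNA, 0.351 between GIGYF1/2-null footprints and mRNA and 0.139 between those of WT. A replicate block by number per assay gave 16 TE calls up and 13 down, 590 footprint calls up and 1120 down, 1202 mRNA calls up and 1405 down, and 31 differences from 4EHP-null up and 87 down. A replicate block that joins genotype and number gave 5 TE calls down and 43 differences down. All 6 TE calls remained under both, and both also called DHX36 and HIST1H1C.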
